A study of Mus musculus with 9 samples.

Results

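The translation initiation and elongation factors of the mouse mammary gland were followed over 4 stages of its development. They were taken as the genes whose only symbol in the array's platform annotation starts with Eif or Eef followed by a digit. By this rule 49 genes with 66 probe sets were found among 8251 genes with 1 symbol, and each gene was represented by the probe set with the highest mean signal. Of the 49 genes, 45 had a mean signal above 20 in at least 1 stage and were tested. RNA of the whole inguinal gland (No4) of wild type C57BL/6J females was hybridised to MG-U74Av2 arrays, each of which carries short oligonucleotide probes for many mouse genes. The groups were puberty (labelled virgin, 6 weeks of age, 3 arrays), day 14 of pregnancy (2 arrays), day 10 of lactation (2 arrays) and day 4 of involution after the pups were weaned (2 arrays). The series design calls the arrays of a stage biological replicates, and with 2 or 3 arrays a stage their number limits the precision.

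Translation starts when eIF4F, a complex of the cap-binding protein eIF4E, the scaffold eIF4G and the RNA helicase eIF4A, brings an mRNA to the small ribosomal subunit. That subunit carries eIF3 and a ternary complex of eIF2, GTP and the initiator tRNA, and the subunit scans to the start codon with the help of eIF1, eIF1A and eIF5. After each round eIF2B reloads eIF2 with GTP, and kinases that phosphorylate eIF2 block this step. The 4E-BP proteins hold eIF4E away from the scaffold. In elongation eEF1A delivers aminoacyl-tRNA and is recharged by the eEF1B subunits, while eEF2 moves the ribosome along and is switched off by its kinase. In the lactating gland the secretory epithelium translates a small number of milk protein mRNAs in very large amounts.

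Arrays of the same stage correlated at 0.947 to 0.975 over the probe sets tested, and arrays of different stages at 0.724 to 0.935. The summed signal of 5 milk protein genes was 437 to 1947 at puberty, 21136 to 22780 at pregnancy, 99957 to 128629 at lactation and 17616 to 20957 at involution. The 7 luminal epithelial markers summed to 1889 to 3282, 4743 to 5368, 1933 to 2274 and 2917 to 4245 at the same stages, and 3 of them rose and 2 fell at lactation. All 10 leukocyte markers fell at lactation, with sums of 1173 to 2408 against 4118 to 10014 elsewhere, and Cd3g was below 20 on both lactation arrays. Of the 6 white adipocyte markers on the array, 5 fell and 1 rose at lactation, with sums of 5596 to 5785 against 7075 to 13946 elsewhere, and Pparg was below 20 on both lactation arrays. The 9 skeletal muscle markers all rose at puberty, with sums of 9691 to 24148 against 251 to 1303 at the other stages. Acta1, Ckm, Tnni2 and Tnnt3 were below 20 on both lactation arrays. The part that these cell types had in the results on translation factors was not tested. In whole glands, fewer cells of a type and less RNA per cell cannot be told apart.

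Expression of the factors differed over the stages about as often as that of the other genes. limma's F test over the 4 stages called 23 of the 45 factors tested (51.1%, adjusted p under 0.05), against 51.6% of all 9783 probe sets tested and 72.2% of the 2446 brightest of them. Among the 23 genes the highest stage mean lay at lactation in 16, at pregnancy in 4, at puberty in 2 and at involution in 1. The lowest stage mean lay at puberty in 12, at involution in 7 and at lactation in 4. The same counts were not made over all probe sets past the F test, so they set no trait of the factors apart.

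At lactation 17 factors rose and 6 fell, compared with the average over the other 3 stages. The 23 calls (51.1%) stood against 51.9% of all probe sets. The rises and falls made up 37.8% and 13.3% of the factors tested, against 27.5% of all probe sets higher and 24.3% lower. The median change of the factors was 0.23 on the log2 scale, against 0.05 over all probe sets. Both lactation arrays lay above all 7 other arrays for 16 factors, where 27.9% of all probe sets did so, and below them for 3, where the share over all probe sets was 22%. Quantile normalization, which gives all arrays the same distribution, moved the split to 11 higher and 8 lower. Rises were then 57.9% of the factors called and 50.2% of all probe sets called. With scaling to the median these shares were 73.9% and 53.1%. Several of the 23 calls were lost without lactation array 1, and several without lactation array 2. With the puberty arrays left out of the fit there were 18 calls, 14 higher and 4 lower. In that fit 22.1% of all probe sets were higher and 20.9% lower.

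At puberty more factors were low than high. There 2 factors were higher than the mean of the other stages (4.44%, background 11.2%) and 11 were lower (24.4%, background 13.2%), with a median of -0.22 for the factors and -0.08 for all probe sets. All puberty arrays lay above every other array for 1 factor (background 5.37%) and below for 5 (background 6.85%). The count of 13 calls shrank with 1 array left out, to 4, 6 and 3 calls without puberty arrays 1, 2 and 3, and 8 without pregnancy array 1. From lactation to involution 14 factors fell and 5 rose (31.1% and 11.1%, backgrounds 23% and 22.1%), with a median of -0.30 against -0.03 for all probe sets. Scaling to the 75th percentile gave 17 lower and 3 higher, where 2435 of all probe sets were lower and 2011 higher. From pregnancy to lactation 11 factors rose and 6 fell (24.4% and 13.3%, backgrounds 21.6% and 19.7%). That split was 8 to 8 on the deposited scale and 9 to 8 after quantile normalization. Over all probe sets it was 1796 higher to 2226 lower and 1924 higher to 2088 lower. The count of 17 was 8 without either pregnancy array and 9 without lactation array 1.

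The remaining stages set fewer factors apart. At pregnancy Eef1d and Eif2b1 were called, both higher (4.44%, background 6.48%), and 0 were lower by limma (background 5.2%). Without pregnancy array 1 or 2 the limma contrast called 0 factors, without puberty array 1 or 3 it called 1, without lactation array 2 it called 5 and without involution array 1 it called 4. At an unadjusted p under 0.05 there were 12 factors. A plain analysis of variance called 2, 1 higher and 1 lower, and Eif2b1 was not called there. Both pregnancy arrays lay above all others for 6 factors (background 7.09%) and below for 0 (background 4.24%). At involution Eif1b was higher (2.22%, background 10.4%) and 6 factors were lower (13.3%, background 7.27%). All involution arrays lay above every other array for 1 factor (background 8.19%) and below for 4 (background 5.04%). The count of 7 was 4 without puberty array 1 or 2 and 1 without involution array 2, and quantile normalization gave 6 calls, all lower.

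**Figure D1:**
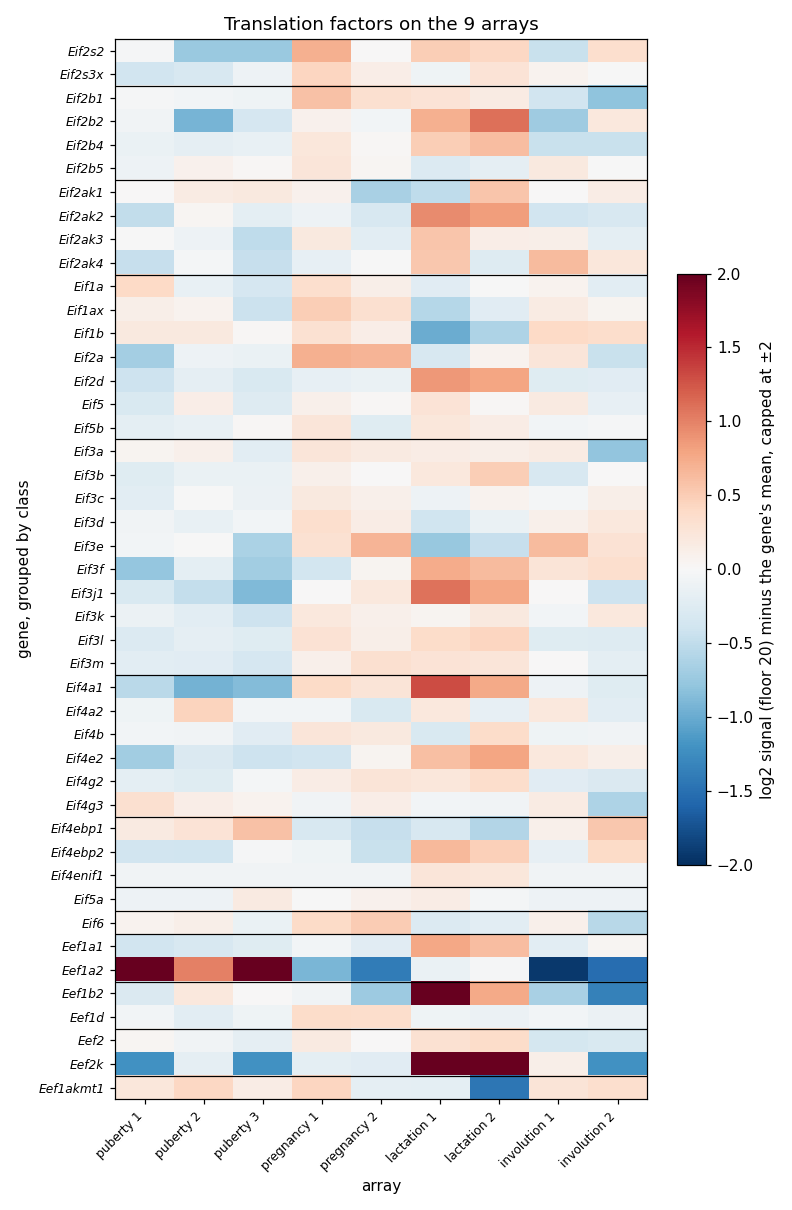
Heat map of the 45 translation factors tested (rows, grouped by class and divided by black lines) on the 9 arrays (columns). Colour gives the log2 signal (floor of 20) after subtraction of each gene's own average, capped at 2 in either direction. The lactation columns are red for many factors and blue for Eif1b, Eif3e and Eef1akmt1, and Eef1a2 is red on the 3 puberty arrays.

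Promoters are shown here for 5 factors with the letters CACGTG, the E-box to which MYC and USF family proteins can bind. They were chosen among the factors called at lactation, so they cannot show a link between the motif and lactation. RefSeq promoters of the assembly GRCm38.p6, from 250 bases before to 50 after each annotated start, were matched to 41 of the 49 factors. CACGTG, which reads the same on both strands, lay in a promoter of 10 of the 41 genes (24.4%), against 8.09% of all 27025 genes. Counted by promoter, it lay in 12 of the factors' 56 (21.4%) and in 7.15% of all 32851. In the sequences below the motif is in capitals and the rest of the window lies upstream of the start.
Eef2 (chr10:81176556-81176625, plus strand): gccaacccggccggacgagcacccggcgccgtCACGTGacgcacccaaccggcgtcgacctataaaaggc
Eef2k (chr7:120842768-120842830, plus strand): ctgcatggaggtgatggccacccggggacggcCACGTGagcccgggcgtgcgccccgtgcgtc
Eif3f (chr7:108934315-108934384, plus strand): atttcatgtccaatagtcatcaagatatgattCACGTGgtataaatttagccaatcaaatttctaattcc
Eif4a1 (chr11:69672575-69672644, minus strand): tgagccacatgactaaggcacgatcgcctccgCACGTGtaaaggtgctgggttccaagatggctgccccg
Eif1b (chr9:120492550-120492605, plus strand): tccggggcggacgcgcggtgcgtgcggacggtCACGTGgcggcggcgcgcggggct
The first 4 of these genes rose at lactation and Eif1b fell. Of the other factors with the motif, Eif3a, Eif3k and Eif5a did not pass the test at lactation and Eif4e and Eif4h were too dim to test. For comparison, 51.1% of all factors tested and 51.9% of all probe sets were called at lactation. Eef2k has 3 annotated starts, not all of which have the motif. Searched on both strands, CCGGAAGT lay in 17.9% of the factors' promoters and 3.89% of all promoters. By gene it lay in 8 of the 41 factors (19.5%), against 4.31% of all genes. Of these, Eef1b2, Eif2b2, Eif2b4, Eif3l and Eif4e2 rose at lactation and Eif3d fell. Eif2ak1 and Eif5a did not pass the test there. The shares by promoter were close to those of all promoters for TTCNNNGAA (8.93% and 8.3%), TGATGNAA (3.57% and 3.97%) and TGACGTCA (1.79% and 1.79%). No match of one motif overlapped a match of another in these promoters. A match of letters is a description of the window and shows no binding.

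Of eIF4F and the genes that assist or resemble its parts, 8 were on the array and 6 were tested. Eif4a1, the RNA helicase of eIF4F, gave signals of 152, 114 and 120 at puberty, 287 and 263 at pregnancy, 545 and 374 at lactation and 204 and 186 at involution. The 3 puberty arrays lay below and the 2 lactation arrays above all others. Against the mean of the other stages Eif4a1 rose by 1.25 (log2, SE 0.17, adjusted p = 0.000451) at lactation and fell by 1.18 (SE 0.15, adjusted p = 0.0011) at puberty. From lactation to involution the same gene fell by 1.21 (SE 0.22, adjusted p = 0.00224), and these 3 calls held under all 23 alternatives that kept the gene. Eif4e2, a cap-binding relative of eIF4E, read 44.7, 59.0 and 54.3 at puberty, 55.6 and 74.7 at pregnancy, 110 and 125 at lactation and 83.4 and 78.0 at involution. It rose by 0.85 (SE 0.20, adjusted p = 0.00671) at lactation. A second, dimmer probe set of Eif4e2 gave -0.12 (adjusted p = 0.769) in the same comparison, so that the gene's 2 probe sets disagree. The dimmer one is of a less specific type and the brighter one is not. Eif4a2, the sister helicase, ranged from 785 to 1321 over the 9 arrays and changed by 0.04 (SE 0.19) at lactation, with arrays of all stages overlapping. For Eif4g2 and Eif4g3, a relative of the scaffold and a scaffold, the changes were 0.36 (adjusted p = 0.0902) and -0.06 (adjusted p = 0.83). Eif4b, which assists the helicase, changed by 0.02 (adjusted p = 0.918) by its brightest probe set, while its second probe set fell by 0.72 (adjusted p = 0.00993). Both are of less specific types, and the specific probe sets of Eif4b were below 20 on all 9 arrays and could not check them. Eif4e, the cap-binding protein itself, and Eif4h gave signals of 3.8 to 15.9 and 2.6 to 9.7, all below 20, and were not tested. The probe set of Eif4a1 is of a type that the manufacturer marks as less specific, and the use of specific probe sets alone left it out.

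The proteins that bind eIF4E did not move together. Eif4ebp1, a repressor that mTORC1 inactivates, read 211, 226 and 279.9 at puberty, 149.7 and 136 at pregnancy, 150.0 and 124 at lactation and 199 and 272 at involution. Its pregnancy and lactation arrays lay below its puberty and involution arrays. Eif4ebp1 fell by 0.54 (SE 0.17, adjusted p = 0.0271) at lactation and was higher by 0.52 (SE 0.15, adjusted p = 0.0369) at puberty, and from lactation to involution it rose by 0.77 (SE 0.21, adjusted p = 0.0181). Eif4ebp2, its paralog, read 825, 814 and 1058 at puberty, 1014 and 789 at pregnancy, 1685 and 1490.1 at lactation and 963 and 1398 at involution. Both lactation arrays were the highest, although involution array 2 came close. Eif4ebp2 rose by 0.70 (SE 0.18, adjusted p = 0.0102) at lactation, and its second probe set rose too (1.39, SE 0.35, adjusted p = 0.00989). Eif4enif1, which carries eIF4E into the nucleus, was below 20 on 7 arrays and read 24.8 and 24.4 at lactation. Its change of 0.30 (SE 0.09, adjusted p = 0.0267) on values with a floor of 20 rests on that narrow margin and is 0 with a floor of 50. Without lactation array 1 the adjusted p was 0.0626 for Eif4ebp1 and 0.127 for Eif4ebp2, and without lactation array 2 it was 0.194 and 0.0648. The puberty call of Eif4ebp1 was lost in 8 of 9 fits with 1 array left out (adjusted p of 0.0515 to 0.145), and the rise to involution was lost without lactation array 2 (0.103) or involution array 2 (0.102). At lactation its adjusted p was 0.0614 without pregnancy array 1, and for Eif4enif1 it was 0.0548 and 0.0564 without puberty arrays 1 and 2.

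eIF3, the largest initiation factor, was represented by 10 subunit genes, all tested. At lactation 5 rose and 2 fell, with a median of 0.24 and a range of -0.84 to 1.14, against 27.5% of all probe sets higher and 24.3% lower. At puberty 5 fell, where 13.2% of all probe sets did. Eif3j1, a loosely bound subunit, read 296, 262 and 196 at puberty, 366 and 421 at pregnancy, 771 and 620.3 at lactation and 365 and 273 at involution. Both lactation arrays stood above the rest, and the gene rose by 1.14 (SE 0.18, adjusted p = 0.00102) at lactation and fell by 0.83 (SE 0.16, adjusted p = 0.00706) at puberty, under all 24 alternatives. Its near-identical copy Eif3j2 may share the signal. Eif3f read 25.2, 37.7 and 26.8 at puberty, 33.3 and 44.8 at pregnancy, 72.4 and 67.1 at lactation and 51.8 and 54.5 at involution. It rose by 0.83 (SE 0.22, adjusted p = 0.0118) at lactation and fell by 0.83 (SE 0.19, adjusted p = 0.0144) at puberty. Eif3l, bright on every array, read 906 to 957 at puberty, 1182 to 1329 at pregnancy, 1409 to 1463 at lactation and 907 to 919.8 at involution, and rose by 0.49 (SE 0.10, adjusted p = 0.00286) at lactation. Eif3b and Eif3m also rose, by 0.44 (adjusted p = 0.0176) and 0.31 (adjusted p = 0.0452). After quantile normalization the changes of Eif3l, Eif3b and Eif3m were 0.24, 0.28 and 0.24, with adjusted p-values of 0.0528, 0.0613 and 0.147.

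Other eIF3 subunits went down in the same glands. Eif3e read 102, 105 and 68.3 at puberty, 130.3 and 170.4 at pregnancy, 62.8 and 77.1 at lactation and 163 and 129 at involution. One puberty array lay among the lactation arrays, and the gene fell by 0.84 (SE 0.22, adjusted p = 0.0125) at lactation. Its second probe set, below 20 on 5 arrays, changed by -0.46 (adjusted p = 0.201). Eif3d, the subunit with a cap-binding site of its own, read 430.0, 409 and 434 at puberty, 573 and 504 at pregnancy, 344 and 415 at lactation and 485 and 526 at involution. One lactation array lay within the range of puberty, and Eif3d fell by 0.37 (SE 0.11, adjusted p = 0.0246) at lactation against the other stages. Eif3a, Eif3c and Eif3k, the first of them the scaffold of the complex, changed by 0.18, -0.04 and 0.13 at lactation, none past the test. At puberty the adjusted p of Eif3f was 0.0728 and 0.0624 without puberty arrays 1 and 3, and the calls of Eif3l, Eif3m and Eif3k were lost without any 1 puberty array (0.0565 to 0.147). The call of Eif3k was also lost without either pregnancy array, lactation array 2 or involution array 2 (0.0604 to 0.0771). Without lactation array 1 the adjusted p at lactation was 0.0731 for Eif3f, 0.13 for Eif3e, 0.102 for Eif3d and 0.114 for Eif3m, and without lactation array 2 it was 0.0503 for Eif3e, 0.124 for Eif3b and 0.0831 for Eif3m. The call of Eif3m was also lost without any 1 of the puberty arrays, without pregnancy array 1 and without involution array 2, with an adjusted p of 0.0517 to 0.0721.

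eIF2B, the exchange factor of eIF2, was measured through 4 of its subunit genes. Eif2b4 read 159, 154 and 157 at puberty, 204 and 178 at pregnancy, 246 and 269.8 at lactation and 129 and 128 at involution. Lactation lay above and involution below all other arrays, and the arrays of a stage were close. The gene rose by 0.72 (SE 0.12, adjusted p = 0.00125) at lactation and fell by 1.0 (SE 0.15, adjusted p = 0.000887) from lactation to involution, under all 23 alternatives that kept the gene. Its probe set is of a less specific type, so that the use of specific probe sets alone left it out. Eif2b2 read 96.8, 53.1 and 80.6 at puberty, 108 and 97.8 at pregnancy, 167 and 217 at lactation and 62.1 and 117 at involution, a wide spread within stages. It rose by 1.13 (SE 0.29, adjusted p = 0.0114) at lactation, but without lactation array 1 or 2 the adjusted p was 0.0675 or 0.146. Eif2b1, a regulatory subunit, was highest at pregnancy (199 and 165) and lowest at involution (101.5 and 75.7). At involution Eif2b1 fell by 0.80 (SE 0.16, adjusted p = 0.0111, and 0.073 without involution array 2), and at pregnancy it was higher by 0.60 (SE 0.16, adjusted p = 0.0453). The latter call was lost without any 1 puberty or pregnancy array or lactation array 2, with an adjusted p of 0.053 to 0.283. Eif2b5, the catalytic subunit, changed by -0.30 (SE 0.13, adjusted p = 0.09) at lactation. Of eIF2 itself, Eif2s3x fell at puberty by 0.40 (SE 0.12, adjusted p = 0.0433) and Eif2s2 changed by -0.76 (adjusted p = 0.0631) there, and neither passed the test at lactation. Their signals overlapped between lactation and pregnancy. The call of Eif2s3x was lost without any puberty array, pregnancy array 1, lactation array 2 or either involution array, with an adjusted p of 0.0537 to 0.161. Eif2s3y, the copy of Eif2s3x on the Y chromosome and so a background check in females, gave 1.5 to 14.1.

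Among the 4 kinases of eIF2 the interferon-induced PKR gene changed. Eif2ak2 (PKR, activated by double-stranded RNA) read 28, 40.6 and 34.7 at puberty, 36.7 and 31.5 at pregnancy, 76.0 and 70.8 at lactation and 30.4 and 31.6 at involution. The 2 lactation arrays stood well clear of the other 7. The gene rose by 1.15 (SE 0.19, adjusted p = 0.00115) at lactation and fell by 1.24 (SE 0.24, adjusted p = 0.00311) on the way to involution, under all 23 alternatives that kept the gene. Eif2ak1 (HRI, a sensor of haem) read 154, 172 and 175 at puberty, 162 and 97.4 at pregnancy, 107 and 224.5 at lactation and 153 and 169 at involution. Its lactation arrays differed more from each other than the stage means did, and the change at lactation was 0.05 (SE 0.28). Eif2ak3 (PERK, a sensor of unfolded protein in the endoplasmic reticulum) read 28.3, 26.6 and 18.0, then 32.7 and 24.6, 41.8 and 31.2, and 30.8 and 24.9 at the 4 stages in order. Its change at lactation was 0.43 (SE 0.21, adjusted p = 0.113). Eif2ak4 (GCN2, a sensor of uncharged tRNA) read 20, 27.0 and 14.4, then 24.8 and 27.4, 40.3 and 23.1, and 43.1 and 32.2. The change of Eif2ak4 at lactation was 0.14 (SE 0.24, adjusted p = 0.647). Both genes were near the floor of 20 on some arrays, and their stages overlapped.

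The factors that act at the start codon moved in both directions. Eif1b, a paralog of the fidelity factor eIF1, read 294, 293 and 261 at puberty, 317 and 279 at pregnancy, 128 and 167 at lactation and 338 and 328 at involution. Lactation lay below and involution above all other arrays. Eif1b fell by 1.05 (SE 0.13, adjusted p = 0.000277) at lactation and rose by 1.19 (SE 0.17, adjusted p = 0.000646) from lactation to involution, and both calls held under all 24 alternatives. Eif1ax, one of the genes of eIF1A, fell by 0.54 (SE 0.17, adjusted p = 0.0283) at lactation. Its second probe set, dimmer but above 20 on all arrays, changed by -0.19 (adjusted p = 0.461). Without lactation array 1, pregnancy array 1 or involution array 1 the adjusted p of the brighter one was 0.233, 0.0669 or 0.0637. Eif2d, which can deliver initiator tRNA without eIF2 and recycle ribosomes, went the other way: it read 102, 120.3 and 111 at puberty, 121 and 125 at pregnancy, 248 and 234 at lactation and 115 and 116 at involution. The 2 lactation arrays lay far above a narrow band of 7. Eif2d rose by 1.05 (SE 0.13, adjusted p = 0.000255) at lactation under all 24 alternatives, and its second probe set was below 20 on the other 7 arrays and read 31.3 and 23.6 at lactation, so that its change of 0.44 (adjusted p = 0.0159) is set by the floor. Eif2a, which is distinct from the alpha subunit of eIF2, read 138 and 135 at pregnancy against 52.8 to 100.5 elsewhere, a change of 0.87 (SE 0.25, adjusted p = 0.0581). Eif1a, Eif5 and Eif5b did not pass the test at lactation, with changes of -0.16 to 0.24. The median of these 7 genes at lactation was -0.16.

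**Figure D2:**
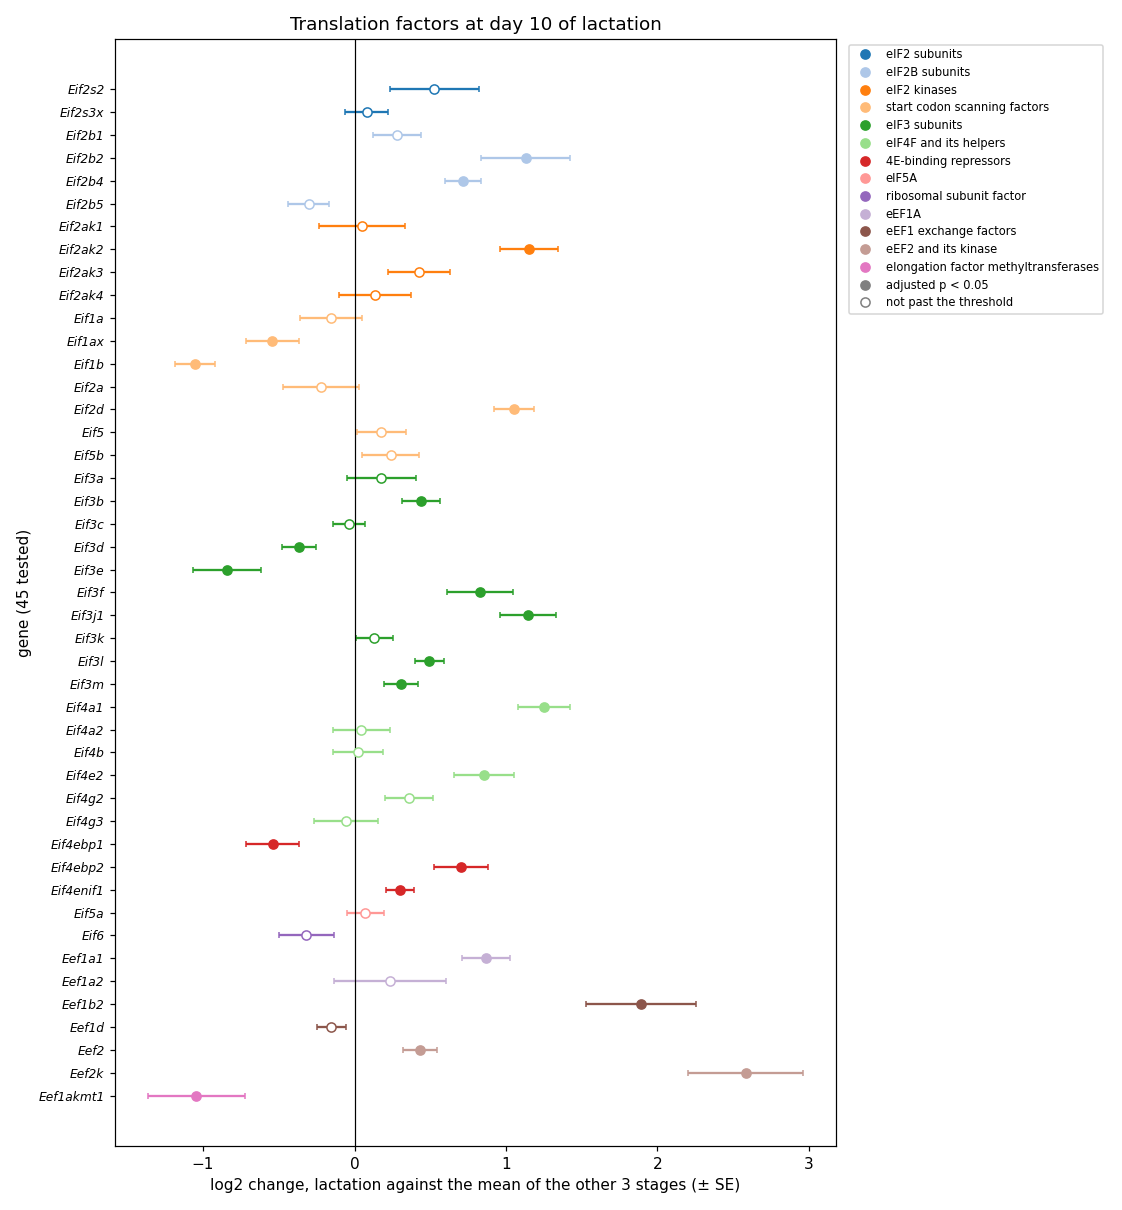
Change of each of the 45 factors at day 10 of lactation compared with the average over the other 3 stages (horizontal axis, log2, points with SE bars), by gene (vertical axis) and coloured by class. Filled points passed an adjusted p of 0.05 and open points did not. Eef2k lies farthest to the right at 2.58, and Eif1b (-1.05) and Eef1akmt1 (-1.04) lie farthest to the left.

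Among the elongation genes Eef2, the translocase, read 2589, 2398 and 2233 at puberty, 2868 and 2548 at pregnancy, 3116 and 3246 at lactation and 1982 and 2054 at involution. It rose by 0.43 (SE 0.11, adjusted p = 0.0122) at lactation and fell by 0.66 (SE 0.14, adjusted p = 0.00577) on the way to involution. After quantile normalization the change at lactation was -0.04 (adjusted p = 0.775), with the direction turned, and from lactation to involution it was -0.31 (adjusted p = 0.0828). Eef2k, the kinase that inhibits eEF2, read 9.8, 40.6 and 6.1 at puberty, 40.5 and 39.6 at pregnancy, 200.4 and 181 at lactation and 50.2 and 9.7 at involution. The 2 lactation arrays lay far above the other 7, of which 3 were below 20. With that floor Eef2k rose by 2.58 (SE 0.38, adjusted p = 0.000623) at lactation and fell by 2.59 (SE 0.47, adjusted p = 0.00254) from lactation to involution, under all 24 alternatives. Eef2 and Eef2k both had their highest signals on the 2 lactation arrays.

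Of the eEF1 genes, Eef1a1, the widely expressed form of the tRNA carrier, read 7499.7, 7807 and 8265 at puberty, 9387 and 8330 at pregnancy, 16632 and 14878 at lactation and 8406 and 10044 at involution. Both lactation arrays were far above the other 7. It rose by 0.87 (SE 0.16, adjusted p = 0.0019) at lactation and fell by 0.78 (SE 0.20, adjusted p = 0.012) on the way to involution. The latter adjusted p was 0.0749 without lactation array 1 and 0.056 without involution array 1, and with no filter on dim probe sets the adjusted p of the 2 changes was 0.0586 and 0.16. The direction depended on the scaling: after quantile normalization Eef1a1 changed by -0.42 (adjusted p = 0.0212) at lactation and by 0.47 (adjusted p = 0.0376) from lactation to involution. Eef1a1 is among the brightest probe sets and has many processed copies in the genome, which may share its signal. Eef1b2, an exchange factor for eEF1A, read 75.6, 107 and 92.6 at puberty, 88.0 and 55.4 at pregnancy, 391 and 155 at lactation and 58.7 and 36.2 at involution. The 2 lactation arrays were the highest and differed widely. The rise was 1.89 (SE 0.36, adjusted p = 0.00256), but its probe set is of a less specific type, the gene's other probe set was too dim to check it (5.8 to 32, below 20 on 5 arrays), and without lactation array 1 the adjusted p was 0.0552. Eef1d, another exchange factor, was higher at pregnancy (479.5 and 477) than on any other array (322 to 358), by 0.46 (SE 0.10, adjusted p = 0.0199), and without pregnancy array 1 or 2 the adjusted p was 0.111 or 0.107. Eef1g gave 0.5 to 5.4 and was not tested. Eef1akmt1, a lysine methyltransferase of eEF1A that the naming rule also takes in, read 51.7 and 21.8 at lactation against 52.1 to 79.8 elsewhere and fell by 1.04 (SE 0.32, adjusted p = 0.0235). Without lactation array 2 the adjusted p was 0.235, and without pregnancy array 1, involution array 1 or involution array 2 it was 0.0608, 0.0587 or 0.0532. Eif5a, which helps ribosomes through difficult peptide bonds, read 12.5 to 24.3 and was below 20 on 4 arrays, too dim to show whether it changed. Eif6, which keeps free large ribosomal subunits apart, read 199 and 218 at pregnancy and 127 and 132 at lactation and fell by 0.68 (SE 0.23, adjusted p = 0.0396) between these stages. Without any 1 puberty, pregnancy or lactation array that adjusted p was 0.0502 to 0.161.

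**Figure D3:**
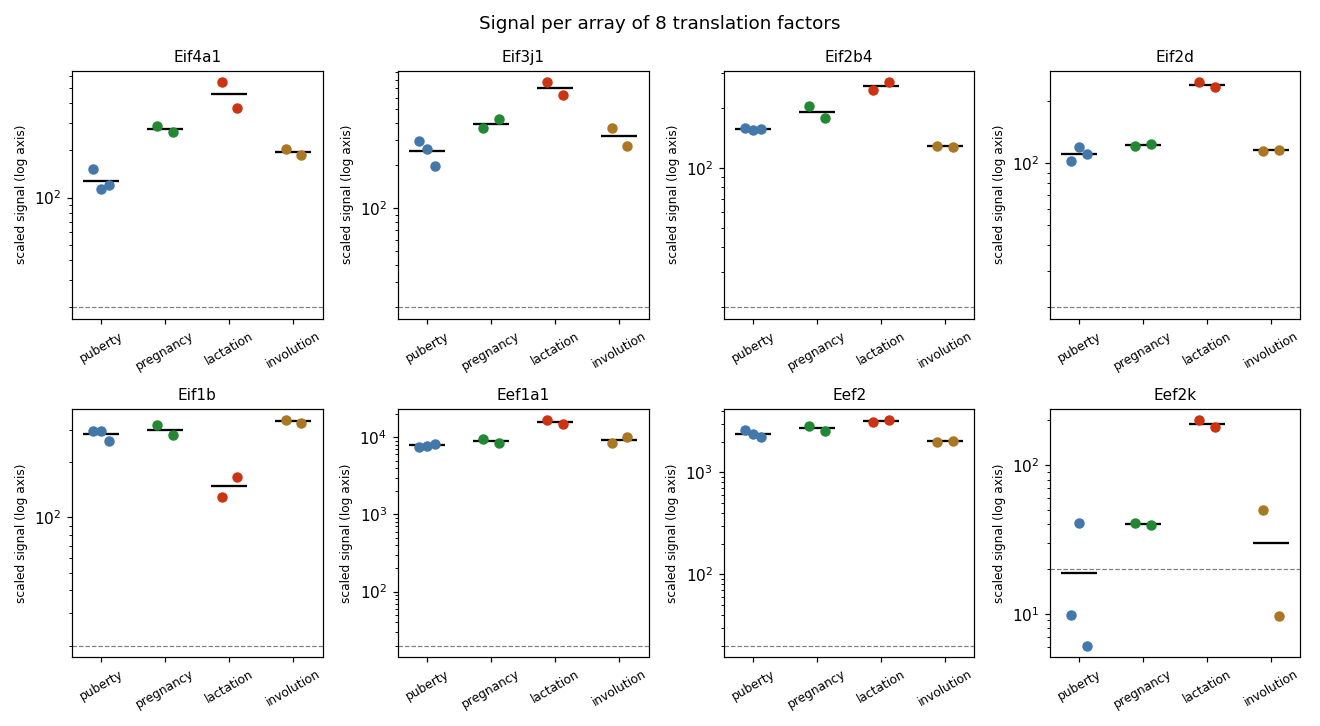
Scaled signal (vertical axis, log scale) of 8 translation factors on each of the 9 arrays by stage (horizontal axis), with a black line at the mean of each stage and a dashed line at the floor of 20. For Eif4a1, Eif3j1, Eif2b4, Eif2d, Eef1a1, Eef2 and Eef2k the 2 lactation points are the highest, and for Eif1b they are the lowest (128 and 167).

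Eef1a2, the form of eEF1A known from muscle, heart and neurons, had the widest range of stage means among the factors tested. Like Eif4ebp1, it was called higher at puberty. It read 694, 289.6 and 883 at puberty, 75.9 and 54.6 at pregnancy, 131 and 142 at lactation and 37.8 and 49.7 at involution. The 3 puberty arrays stood above all others. Eef1a2 was higher at puberty by 2.96 (SE 0.33, adjusted p = 0.000492) under all 24 alternatives, and it fell at involution by 1.97 (SE 0.37, adjusted p = 0.00885). Without involution array 1 or 2 the latter adjusted p was 0.102 or 0.0629. The summed signal of the 9 skeletal muscle markers moved with it at puberty: 15903, 9691 and 24148 on the same 3 arrays, with the lowest Eef1a2 on the array with the lowest sum. At the other stages the order differed. The sums were 1303 and 251 at pregnancy, 298 and 253 at lactation and 486 and 685 at involution, while Eef1a2 was higher on the lactation arrays than on any pregnancy or involution array. Lactation against pregnancy gave 1.08 (SE 0.46, adjusted p = 0.0913) for Eef1a2, and from lactation to involution it fell by 1.65 (SE 0.46, adjusted p = 0.0181). Without any 1 lactation or involution array the latter adjusted p was 0.059 to 0.134. The part of muscle RNA in the puberty signal was not tested.

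**Figure D4:**
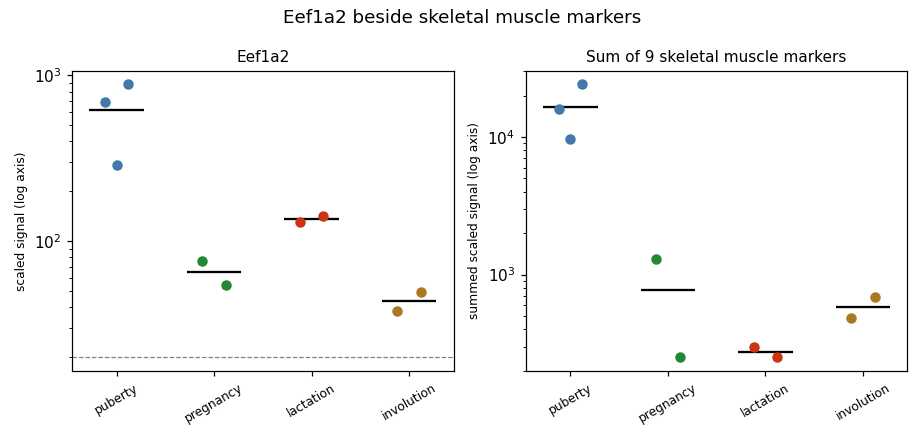
Scaled signal of Eef1a2 (left) and summed scaled signal of 9 skeletal muscle markers (right) on each array by stage, both on a log axis, with a black line at the stage mean and, on the left, a dashed line at the floor of 20. Both are highest on the 3 puberty arrays (289.6 to 883 and 9691 to 24148), while Eef1a2 reads 131 and 142 at lactation where the marker sum is 298 and 253.

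Genes around the factors were counted from lists of the pathway. Of 9 genes on a list drawn up for eIF4F partners and the ends of mRNA, 2 rose and 1 fell at lactation. This is a smaller share than that of all probe sets called (51.9%). Dap, a death-associated protein on that list but not a subunit of eIF4F, rose by 2.15 (SE 0.10, adjusted p = 2.08e-06). It read 697 to 772 at puberty, 712 to 737 at pregnancy, 3351 to 3452 at lactation and 814 to 907 at involution. Pdcd4, an inhibitor of the eIF4A helicase, read 431 to 527, 566 to 663, 1499 to 1802 and 368 to 375 at the same stages and rose by 1.78 (SE 0.12, adjusted p = 1.41e-05). Ncbp2, a subunit of the nuclear cap-binding complex, fell by 1.12 (SE 0.19, adjusted p = 0.0012). Eif4a1 and Pdcd4 were both highest on the 2 lactation arrays.

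Of 11 genes of mTORC1, the kinase complex that acts on the 4E-BP proteins, and its pathway, 4 rose and 2 fell at lactation, about the share of all probe sets called (51.9%). Akt1, an upstream kinase, rose by 1.76 (SE 0.15, adjusted p = 4.09e-05), Mtor, the kinase itself, rose by 1.11 (SE 0.14, adjusted p = 0.000298), and Sesn1, a sestrin that restrains the complex, fell by 2.01 (SE 0.15, adjusted p = 1.65e-05). The other called members, named after their values were seen, were Mlst8, a subunit of the complex, and Tsc2, an inhibitor of the pathway, which rose by 0.80 (adjusted p = 0.0035) and 0.58 (adjusted p = 0.0143), and Rragc, a GTPase that activates the complex, which fell by 0.72 (adjusted p = 0.00152). Of 6 genes of termination and ribosome release 4 rose (27.5% of all probe sets did), led by Pelo, a rescue factor of stalled ribosomes, from 55.4 to 115 at the other stages to 689 and 458 at lactation (2.59, SE 0.22, adjusted p = 3.58e-05). The release factor gene Gspt1 rose by 1.11 (SE 0.13, adjusted p = 0.000193), and Hbs1l, the partner of pelota, by 0.76 (SE 0.12, adjusted p = 0.000895).

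Aminoacyl-tRNA synthetases and their scaffold proteins rose more often than they fell: of 20 genes tested 14 rose and 1 fell at lactation, against 27.5% and 24.3% of all probe sets. Their median change was 0.56, against 0.05 over all probe sets. Set against pregnancy alone, 3 of the 20 were called higher and 1 lower at lactation. In that comparison 21.6% of all probe sets were higher and 19.7% lower, and the median was 0.31, against 0.07 over all probe sets. Rars, for arginine, read 164 to 187 at puberty, 267 and 259 at pregnancy, 568 and 548 at lactation and 186 and 214 at involution, and rose by 1.41 (SE 0.11, adjusted p = 2.79e-05). Qars, for glutamine, rose by 0.75 (SE 0.13, adjusted p = 0.00151). Aimp1, which is a scaffold protein of the multisynthetase complex and not an enzyme, fell by 1.66 (SE 0.17, adjusted p = 8.88e-05). Of 4 mitochondrial translation factors 1 rose and 1 fell (backgrounds 27.5% and 24.3%). Tufm, the elongation factor Tu of the organelle, read 74.9 to 171 at the other stages and 1576 and 1234 at lactation (3.43, SE 0.24, adjusted p = 1.34e-05), and Mtif2, its initiation factor, fell by 0.65 (SE 0.18, adjusted p = 0.0142).

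The list of eIF2 phosphorylation and its stress response held 4 genes of 10 that rose and 2 that fell at lactation, against 27.5% and 24.3% of all probe sets. Atf4, the transcription factor whose translation phosphorylated eIF2 favours, read 427 to 487 at puberty, 525 and 498 at pregnancy, 1027 and 1137 at lactation and 439 and 383 at involution (1.25, SE 0.11, adjusted p = 4.13e-05). Trib3, one of its target genes, rose by 2.77 (SE 0.30, adjusted p = 0.000111). Ppp1r15a, which recruits the phosphatase of eIF2, read 66.5 to 102 at the other stages and 24.4 and 32.5 at lactation, and fell by 1.58 (SE 0.18, adjusted p = 0.000177). Arrays measure RNA, and the phosphorylation of eIF2, the 4E-BP proteins and eEF2 was not measured.

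**Figure D5:**
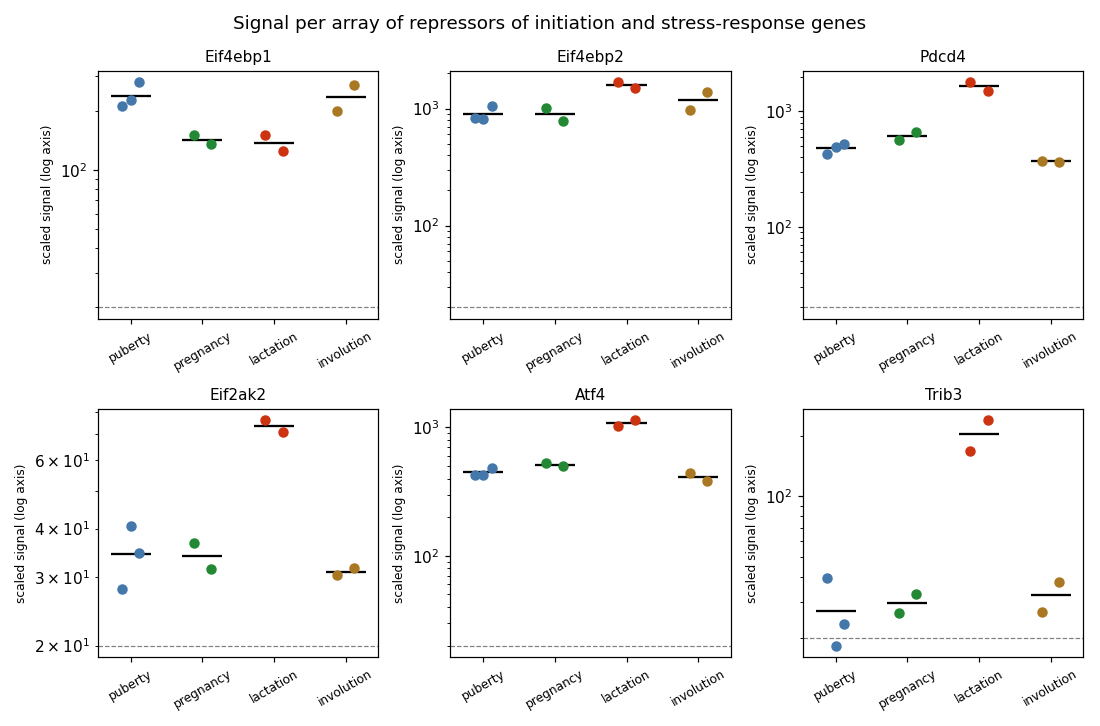
Scaled signal (vertical axis, log scale) on each array by stage for the repressors Eif4ebp1, Eif4ebp2 and Pdcd4, the eIF2 kinase Eif2ak2, and Atf4 and Trib3, with a black line at the stage mean and a dashed line at the floor of 20. Pdcd4 (1499 to 1802) and Eif2ak2 (70.8 and 76.0) are highest on the 2 lactation arrays, while Eif4ebp1 is low at pregnancy and lactation (124 to 150.0).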

How the data were processed

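Total RNA of whole glands, kept in RNAlater and extracted with Trizol, was labelled with biotin and hybridised to 9 arrays. The values that the authors deposited are intensity on a linear scale for each probe set, made with MAS5 by the submitters' processing notes, whose version is not stated there. The deposited medians were 48.1 to 53.8 per array. Without the 66 control probe sets, each array was multiplied by a factor (0.948 to 1.06) that gave all arrays 1 median, a floor of 20 was applied and values were put on the log2 scale. Printed signals are scaled and have no floor. Probe sets with a stage mean above 20 in at least 1 of the 4 stages were tested (9783). Gene names are those of the platform annotation. RefSeq symbols were found by Entrez ID for 10817 of the 10833 probe sets with 1 symbol and served in an alternative choice of members. Left out was 1 probe set with several factor symbols. limma 3.58.1 under R 4.3.3 gave all tests (lmFit, eBayes with trend, all 9 arrays, Benjamini-Hochberg over all probe sets tested, threshold 0.05), which were checked on simulated data, and figures were drawn with matplotlib 3.10.9. Described with every array were the 12 factors with the largest range of stage means past the F test, the proteins that bind eIF4E, the eIF2 kinases and both eEF1A genes. Other factors were planned by class, with up to 4 examples, and up to 3 genes from each pathway list. In some classes and in the mTORC1 list more genes than planned were named. Members and lists were chosen with earlier results of these data known. The authors' later normalization, which their methods describe, is not in these values. Alternatives covered scaling, floor, filter, fit, probe set choice and each array left out.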

Additional observations from a re-analysis of the deposited data

How the results depend on the processing

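Under 24 other settings the counts of called factors kept within 1.5 times for the F test and for lactation against the other stages, lactation against pregnancy and involution against lactation, apart from the left-out arrays given here. Quantile normalization gave 8 calls at puberty and 5 at pregnancy, a floor of 50 gave 6 at pregnancy, a filter of 100 gave 5 at pregnancy, and robust fitting gave 15 at pregnancy and 15 at involution. No pairing by replicate number was seen: of 12 correlations between deviations of equally numbered arrays none passed 0.1 (-0.153 to 0.049). Between stages of 2 arrays, replicates 1 and 2 give the same value, so fewer than 12 are independent. With the replicate number as a block there were 3 calls at puberty, 0 at pregnancy and 3 at involution. With 1 array left out at a time the calls ranged from 17 to 27 for the F test, 3 to 13 at puberty, 0 to 5 at pregnancy, 15 to 23 at lactation, 1 to 9 at involution, 8 to 19 for lactation against pregnancy and 15 to 18 for involution against lactation. A stage left with 1 array is assumed to vary like the others.

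The median change of the factors at lactation was 0.15 on the deposited scale, 0.16 after quantile normalization, 0.13 with a floor of 50, 0.17 with a constant of 16 added, 0.14 with the second brightest probe set and 0.16 to 0.29 with 1 array left out. With the puberty arrays left out of the fit, an alternative chosen after seeing the data, it was 0.20. For the eIF2 kinases the median was 0.024 with a floor of 50 and 0.048 with a filter of 100, and 0.22 to 0.59 with 1 array left out. The median of eIF4F and its helpers was 0.033 without a filter, -0.0068 by the second probe sets and 0.19 to 0.39 with 1 array left out. For eIF3 it was 0.15 by the second probe sets and 0.22 to 0.34 with 1 array left out, for eIF2B 0.28 by specific probe sets alone and 0.46 to 0.54 with 1 array left out, and for the start codon factors -0.26 to -0.032 with 1 array left out. The cause of these shifts was not tested.

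Directions turned in the following cases. After quantile normalization Eef1a1 changed by 0.11 at puberty, -0.42 at lactation, -0.39 from pregnancy to lactation and 0.47 from lactation to involution, and Eef2 by -0.038 at lactation. Eef1b2 by its second probe set, which is also its specific one, changed by -0.14 at lactation, 0.37 at involution, -0.041 from pregnancy to lactation and 0.38 from lactation to involution, but it was below 20 on 5 arrays and at most 32, so that the floor sets these values. By second probe sets Eif2b5 changed by -1.02 at involution and -1.02 from lactation to involution, Eif4b by -0.72 at lactation, and Eif4e2 by -0.12 at lactation and -0.64 from pregnancy to lactation. The second probe sets of Eif4b and Eif4e2 are of less specific types. With 1 array left out Eif4b changed by -0.32 (without lactation array 2) to 0.36 (without lactation array 1) at lactation. Signals below 20, on 13.2 to 15.5% of the probe sets tested per array, carry no order.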

Other observations

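Of the factors 14 had more than 1 probe set, and the ones that were not the brightest gave values of their own. The second probe set of Eif1a read 89.4 to 103 at puberty, 147.5 and 136 at pregnancy, 93.6 and 60.6 at lactation and 138 and 126 at involution, and fell by 0.69 (SE 0.19, adjusted p = 0.0144) at lactation, where the brightest one changed by -0.16 (adjusted p = 0.544). The second probe set of Eif5b, the GTPase that joins the ribosomal subunits, read 3.7 to 50.7 with some arrays below 20 and rose by 0.95 (SE 0.27, adjusted p = 0.0163) at lactation, where the brightest one changed by 0.24 (adjusted p = 0.314). The dimmest of the 3 probe sets of Eif4ebp2 read 54.2, 40.3 and 29.1 at puberty and 3.2 to 26.5 at the other stages. These probe sets may detect different transcripts of a gene or other sequences, which was not tested.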
